A study of Mus musculus with 4 samples.

Results

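The genes described here are 9 keratins of simple and basal epithelia (Krt5, Krt7, Krt8, Krt14, Krt15, Krt17, Krt18, Krt19 and Krt20) and vimentin (Vim). They were chosen by symbol, with older array names resolved through RefSeq accessions. The set comprised 10 genes with 13 probes, out of 27670 genes and 41174 probes on the array. All 13 probes and all 10 genes passed the filter on dim probes, which left 20500 genes for testing. Gene expression was measured in 4TO7, a mouse mammary tumour cell line of the BALB/cfC3H strain, on 2-colour Agilent microarrays. The control line stably carried the empty retroviral vector pMSCV-puro, and the other line carried pMSCV with the microRNA cluster miR-23b/27b/24, so vector sequence was common to both. Each group had 2 arrays, described by the series as transfection replicates, and the labels do not say whether a line was a clone or a pool. Cell RNA was labelled with Cy5 and a common reference, RNA pooled from 11 mouse cell lines, with Cy3. The comparison asks how the cells' transcripts differ when the cluster is overexpressed.

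Keratins form the intermediate filaments of epithelial cells, and each filament pairs a type I (acidic) with a type II (basic) keratin. Krt8 and Krt18 are the main pair of simple epithelia, with Krt7, Krt19 and Krt20 as further simple keratins, while Krt5 with Krt14 marks basal cells, including mammary myoepithelium. Vimentin forms filaments of mesenchymal cells and is also made by many cultured and invasive epithelial tumour cells. In the mammary gland, Krt8, Krt18 and Krt19 are typical of luminal cells.

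The overexpressed cluster encodes miR-23b, miR-27b and miR-24. The mature miR-27b-3p and miR-24-3p of RefSeq (GRCm38.p6, chromosome 13) are shown because the seed, bases 2 to 8 and here in capitals, is the part of a microRNA that pairs with its targets.
mmu-miR-27b-3p: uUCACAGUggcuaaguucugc
mmu-miR-24-3p: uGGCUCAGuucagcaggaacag
The seeds differ. The 7-base complement of the miR-27b-3p seed, ACTGTGA, occurred in 1 of the 13 keratin and vimentin probes, against 0.826% of 41174 array probes. That of miR-24-3p, CTGAGCC, occurred in 0 of 13, against 0.420%. The seed complements of miR-23b-5p, miR-27b-5p and miR-24-1-5p also occurred in 0 of 13. The other strand, miR-23b-3p, was missing from the RefSeq tables used and was not searched, so these counts do not cover it. The single match lay in the second Vim probe, which starts its match at base 51, in this window with the match in capitals.
Vim, second probe: gacaaagtcattgaaataacACTGTGAcag
Probes cover 60 bases, so most of each transcript was not searched, and a match describes letters and not a site of regulation.

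The probes of the 3 genes that passed the test show what the array read; for Krt7 the dimmer of its probes is printed.
Krt7: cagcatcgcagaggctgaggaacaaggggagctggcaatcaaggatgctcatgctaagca
Krt19: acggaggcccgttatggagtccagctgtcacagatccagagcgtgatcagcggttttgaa
Krt14: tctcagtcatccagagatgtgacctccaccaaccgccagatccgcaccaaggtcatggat
Per the file headers, in build mm7, the printed Krt7 probe lies at chr15:101409444-101409503 on the plus strand and the brighter one at chr15:101413898-101413957. The Krt19 probe lies at chr11:100250117-100250176, and the Krt14 probe spans chr11:100312408-100313013, that is 60 bases spread over 606. The type II keratins Krt5, Krt7 and Krt8 and the type I keratin Krt18 lie on chromosome 15. The other 5 type I keratins lie on chromosome 11, and Vim on chromosome 2. The nearest probes of Krt8 and Krt18, on opposite strands, were 34935 bases apart. No annotation of mm7 was used, so exons are not assigned.

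Across arrays, 69.9% to 74.8% of probes were well above background in Cy5. All 4 arrays shared 1 slide and 1 scan. Vector arrays correlated at 0.887, miR-23b/27b/24 arrays at 0.952, and arrays of different groups at 0.629 to 0.725, over the genes tested. No keratin or vimentin probe was saturated. Of the 13 probes, 1 (the second Vim probe) was not well above background in Cy5 on the vector arrays. Below, a level is the log2 ratio of cell RNA over reference RNA on an array. Such levels can be set against each other between arrays for a gene, but not between genes. A change is the miR-23b/27b/24 mean minus the vector mean, with the standard error of limma. A gene is called changed at an adjusted p under 0.05 (Benjamini-Hochberg over all genes tested). With 2 arrays a group the number of arrays limits the precision. The p-values rest on the spread between the arrays called transfection replicates, which limma moderates with the spread of all genes tested.

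The cluster-carrying cells had less Krt7, Krt19 and Krt14, by 22.5-fold, 16.3-fold and 2.36-fold. The other 7 genes did not pass the test, among them the core simple pair Krt8 and Krt18, the basal keratin Krt5 and vimentin. Thus 3 of 10 genes were called lower and 0 higher by limma. Among all genes tested, 4.64% were called lower and 4.77% higher, 9.41% in all. At an unadjusted p under 0.05 limma gave 5 of the 10 lower and 0 higher. The share of all genes at that unadjusted level is not given. Unadjusted counts, here and below, therefore have no background and are not read as results. In 7 of the 10 genes both miR-23b/27b/24 arrays lay below both vector arrays, as in 32.3% of all genes, and in 0 both lay above, as in 27.4% (59.8% for either direction). The median change was -0.48, against -0.03 over all genes.

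**Figure D1:**
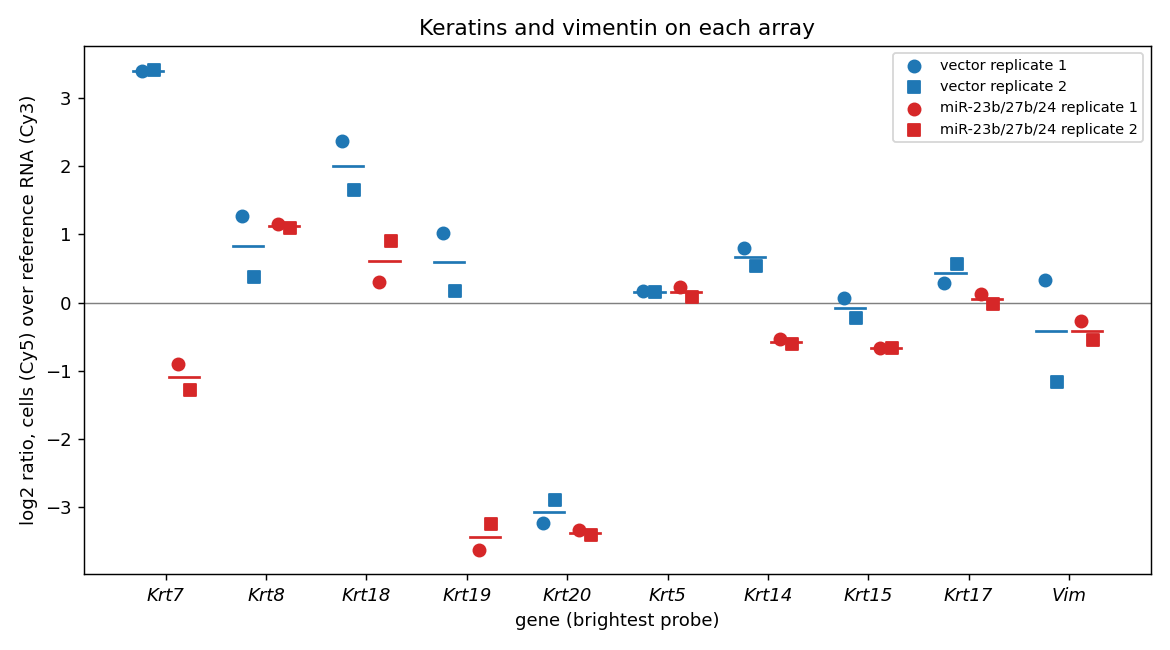
Level of each gene's brightest probe on each array, as the log2 ratio of cell RNA over reference RNA; circles and squares are replicates 1 and 2, and short lines are group means of 2 arrays. The groups are far apart for Krt7 and Krt19, closer but separate for Krt14, and overlapping for Krt8, Krt5 and Vim.

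Krt7 is a type II keratin of simple and ductal epithelia. Its brighter probe read 3.39 and 3.41 on the vector arrays, and -0.90 and -1.28 on the miR-23b/27b/24 arrays. The vector arrays were nearly equal, and both miR-23b/27b/24 arrays lay far below them. The change was -4.49 ± 0.17 (SE, n = 2 and 2; 95% interval -4.93 to -4.05), that is 22.5-fold lower (16.6 to 30.4), with an adjusted p of 0.00178 by limma. It was the 7th largest fall among 20500 genes. The second probe, 4394 bases away, read 4.39 and 4.33 on the vector arrays, and -0.78 and -1.28 on the miR-23b/27b/24 arrays. It fell by 5.39 on the log2 scale (SE 0.20), or 42.0-fold, with an adjusted p of 0.00125 in limma fitted over all probes, where 4.44% of probes were called lower. Both Krt7 probes therefore separated the groups.

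The reference channel of Krt7 was not level between arrays. Its Cy5 signal, from the cells, was 108563 and 63662 scanner units on the vector arrays, and 724 and 549 on the miR-23b/27b/24 arrays. Its Cy3 signal, from the same reference RNA on each array, was 9101 and 7032 on the vector arrays, and 1601 and 1555 on the others. The second probe showed Cy3 signals of 777 and 589 against 264 and 261. Reference signal was thus higher on the arrays where cell signal was higher. How this arises was not tested. Without the reference channel, on quantile-normalized Cy5 alone, the change of Krt7 was -6.87 (117-fold), so the size of the fall depended on the reference while its direction did not. The Cy3 signals of Krt19 were 5250 and 5200 on the vector arrays, and 4954 and 4728 on the others. Those of Krt14 were 508 and 451 on the vector arrays, and 365 and 394 on the others. In both genes Cy3 was thus also higher on the vector arrays, to a smaller degree than for Krt7.

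**Figure D2:**
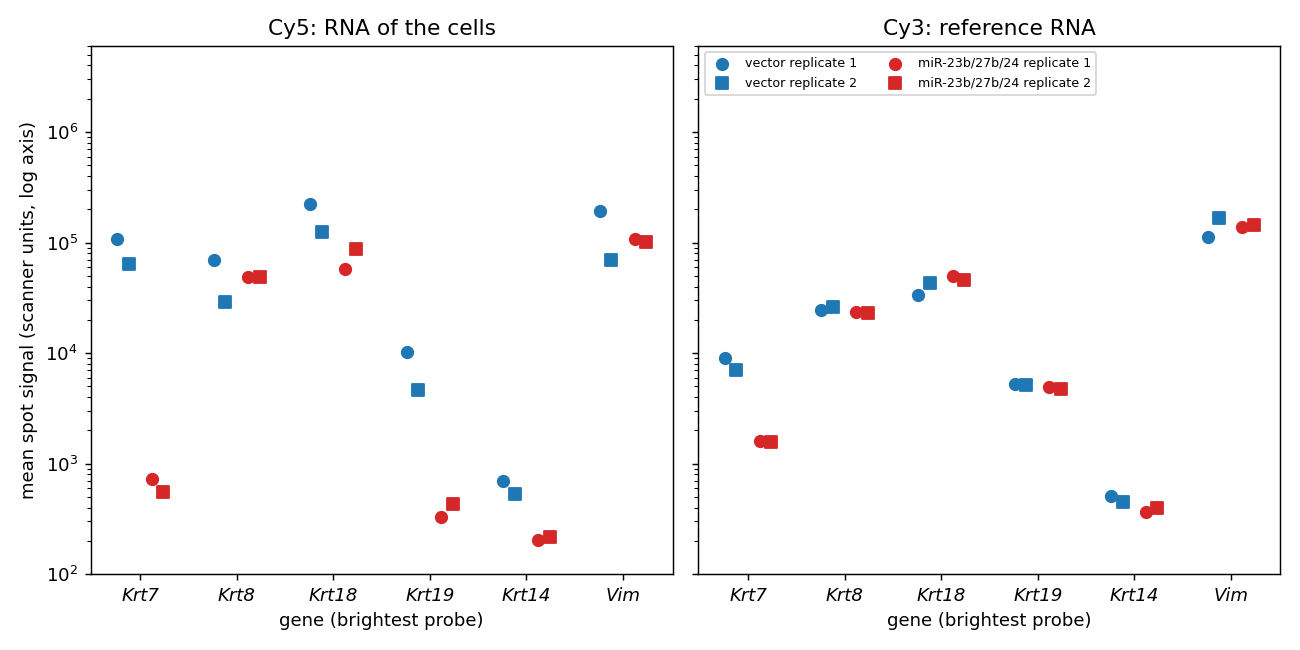
Mean spot signal of the brightest probe of 6 genes, in scanner units on a log axis, in Cy5 (RNA of the cells, left) and Cy3 (reference RNA, right); each point is an array, with circles and squares for replicates 1 and 2. Krt7 differs between the groups in both channels, from 1555 to 9101 in Cy3, whereas Krt19 differs in Cy5 with Cy3 between 4728 and 5250.

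Krt8 is the type II keratin that pairs with Krt18. Its brighter probe read 1.28 and 0.37 on the vector arrays, and 1.15 and 1.09 on the miR-23b/27b/24 arrays. The miR-23b/27b/24 values fell between the vector values, so the groups overlapped. The change was 0.30 ± 0.31 (95% interval -0.52 to 1.11), with an adjusted p of 0.607 by limma. Its second probe read 0.80 and 0.06 against 0.72 and 0.69, a change of 0.28 ± 0.26. Cell signals of the brighter probe were high on all 4 arrays, from 29150 to 70104 scanner units. The low array was vector replicate 2. Without vector replicate 1 the change was 0.75 with an adjusted p of 0.0228 by limma, and without vector replicate 2 it was -0.16, so its sign depended on which vector array was kept.

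Krt18, the type I partner of Krt8, read 2.37 and 1.65 on the vector arrays, and 0.30 and 0.90 on the miR-23b/27b/24 arrays. Both miR-23b/27b/24 arrays lay below both vector arrays, with wide gaps inside each group. The change was -1.40 ± 0.32 (95% interval -2.24 to -0.57; 2.64-fold), but the adjusted p of 0.065 by limma missed the threshold. It passed without vector replicate 2 (change -1.76, adjusted p 0.0217 by limma) and with a normexp offset of 16 (adjusted p 0.0471 by limma). Its Cy3 signal also moved, in the other direction from that of Krt7, at 33602 and 43392 on the vector arrays against 50225 and 46133. Cy5 alone gave -0.92. The part of the reference channel in the Krt18 value was not tested. Krt8 and Krt18 have processed pseudogenes, and the probes may read transcripts of near-identical copies.

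Within arrays, the level of Krt18 minus that of Krt8 was 1.09 and 1.28 on the vector arrays, and -0.85 and -0.19 on the miR-23b/27b/24 arrays. This difference removes what both genes share on an array, and its groups did not overlap. It shifted by -1.70 between groups. With 2 arrays a group, the exact two-sided permutation test cannot give a p below 0.333, the value obtained here. For Krt19 minus Krt8 the values were -0.25 and -0.20 on the vector arrays, and -4.78 and -4.33 on the others.

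Krt19, a small type I keratin of simple and luminal mammary epithelium, read 1.02 and 0.17 on the vector arrays, and -3.63 and -3.24 on the miR-23b/27b/24 arrays. The vector arrays differed from each other, but the gap between groups was several times wider. The change was -4.03 ± 0.32 (95% interval -4.87 to -3.19), or 16.3-fold lower (9.13 to 29.2), with an adjusted p of 0.00662 by limma. It ranked 23rd among falls. In Cy5 its signal was 10263 and 4628 scanner units on the vector arrays, and 327 and 431 on the others, all above a median local background near 35. The call was missed without miR-23b/27b/24 replicate 1, at -3.84 and an adjusted p of 0.0553 by limma.

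Krt20, a type I keratin typical of intestine and urothelium, stood far below the reference in every array. It read -3.23 and -2.90 on the vector arrays, and -3.34 and -3.40 on the miR-23b/27b/24 arrays. Those arrays lay just below the vector arrays. The change of -0.30 ± 0.16 (95% interval -0.72 to 0.11) had an adjusted p of 0.3 by limma. Its Cy5 signals ran only from 85.3 to 129 scanner units. With every local background as measured the change was -1.48, also not called.

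Among the basal keratins, Krt14 is the type I partner of Krt5. Krt14 read 0.80 and 0.54 on the vector arrays, and -0.54 and -0.60 on the miR-23b/27b/24 arrays. Replicates lay close together and the groups did not overlap. The change was -1.24 ± 0.15 (95% interval -1.62 to -0.86), or 2.36-fold lower (1.82 to 3.07), with an adjusted p of 0.0158 by limma. Its Cy5 signals were modest, at 693 and 529 against 204 and 218 scanner units. The call was missed without either miR-23b/27b/24 array, at adjusted p of 0.124 and 0.118 by limma.

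Krt5 read 0.17 and 0.15 on the vector arrays, and 0.23 and 0.08 on the miR-23b/27b/24 arrays. The groups overlapped. The change was -0.01 ± 0.13, and the 95% interval of -0.34 to 0.32 bounds what these arrays allow. Krt5 signals ran from 263 to 285 scanner units in Cy5, so this narrow interval belongs to a dim probe. Krt14 minus Krt5 was 0.63 and 0.38 within the vector arrays, and -0.77 and -0.68 within the others, a shift of -1.23.

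Krt15, a type I keratin of basal cells, read 0.07 and -0.23 on the vector arrays, and -0.67 on each of the miR-23b/27b/24 arrays. The groups did not overlap, yet the change of -0.59 ± 0.15 (95% interval -0.98 to -0.20) had an adjusted p of 0.0806 by limma. It passed without vector replicate 2, at -0.74 and an adjusted p of 0.0324 by limma. Krt17, a type I keratin induced in activated and wounded epidermis, read 0.29 and 0.57 on the vector arrays, and 0.13 and -0.02 on the others. Its change was -0.38 ± 0.15 (95% interval -0.78 to 0.03), with an adjusted p of 0.203 by limma. Both were dim, with Cy5 signals from 152 to 402 scanner units.

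Vimentin was bright in all arrays, from 69903 to 193687 scanner units in Cy5 on its brighter probe. That probe read 0.33 and -1.16 on the vector arrays, and -0.26 and -0.56 on the miR-23b/27b/24 arrays. The vector arrays lay on either side of the others. The change was 0.00 ± 0.50, and the 95% interval of -1.30 to 1.31 leaves room for more than 2-fold either way. The gap of 1.49 between vector arrays was wider than that of 99.1% of genes. It was 0.91 for Krt8 (wider than 95.5% of genes), 0.85 for Krt19, 0.72 for Krt18 and -0.02 for Krt7. By the ratio, vector replicate 1 was thus the higher array for 4 bright genes but not for Krt7. In Cy5 signal Krt7 was also higher on vector replicate 1, at 108563 against 63662 scanner units. Without vector replicate 1 the Vim change was 0.75 (adjusted p 0.0428 by limma), and without vector replicate 2 it was -0.74.

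The second Vim probe, 5406 bases from the first and named through a different transcript, read -0.31 and -0.37 on the vector arrays, and 0.69 and 0.29 on the miR-23b/27b/24 arrays. It disagreed with the brighter probe. Its measured change was 0.83. In Cy5 it was not well above background on either vector array (52.6 and 46.2 scanner units), and was on both others (117 and 79.2). It passed the filter through the miR-23b/27b/24 group alone, so no test is given for it. Its level in the vector cells is a bound, and the probe was at least 1.71-fold higher in the miR-23b/27b/24 cells. It holds the single seed match shown above.

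**Figure D3:**
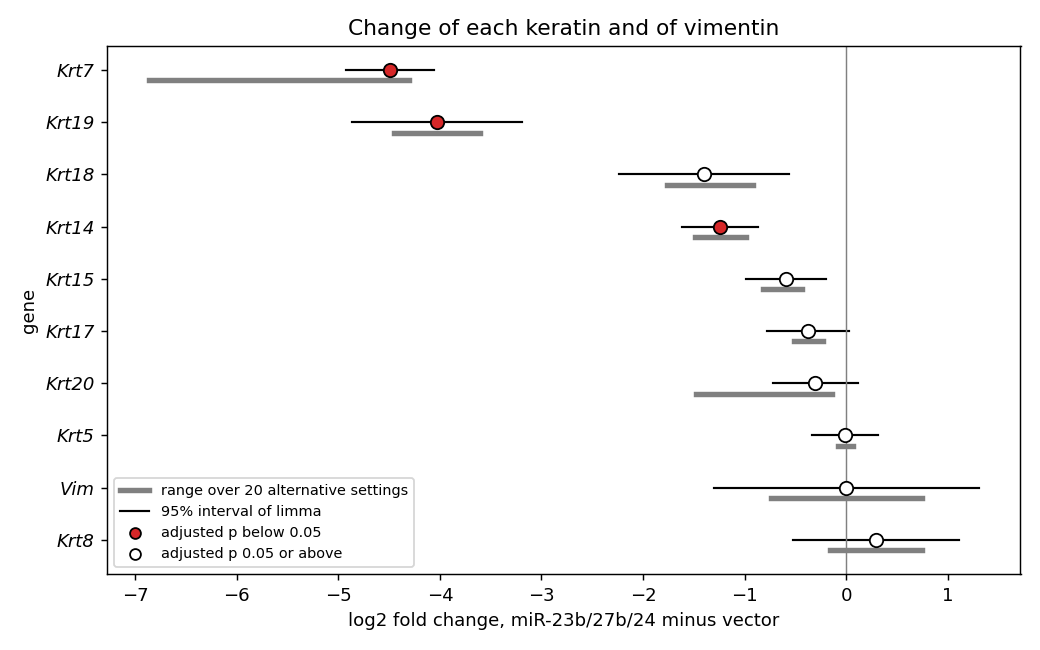
Change of each gene (miR-23b/27b/24 minus vector, log2 scale) with the 95% interval of limma as a thin line, and the range over 20 alternative settings as a thick grey line; filled points passed the test. Krt7, Krt19 and Krt14 are the filled points, and the grey lines of Krt5, Vim and Krt8 cross 0.

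Promoters of Krt7, Krt8 and Krt18, simple keratins on chromosome 15, are shown beside their changes. Each is the 250 bases before the RefSeq start in GRCm38.p6, with matches to the searched motifs in capitals.
Krt7: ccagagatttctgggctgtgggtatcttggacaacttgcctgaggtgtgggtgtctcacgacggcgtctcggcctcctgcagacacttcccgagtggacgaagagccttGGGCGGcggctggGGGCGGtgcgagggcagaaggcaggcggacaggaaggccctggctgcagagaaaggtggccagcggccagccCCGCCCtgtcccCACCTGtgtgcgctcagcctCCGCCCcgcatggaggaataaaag
Krt8: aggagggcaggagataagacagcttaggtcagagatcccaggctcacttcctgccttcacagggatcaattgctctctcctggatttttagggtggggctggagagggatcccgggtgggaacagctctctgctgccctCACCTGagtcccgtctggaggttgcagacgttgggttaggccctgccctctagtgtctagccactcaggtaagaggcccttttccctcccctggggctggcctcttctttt
Krt18: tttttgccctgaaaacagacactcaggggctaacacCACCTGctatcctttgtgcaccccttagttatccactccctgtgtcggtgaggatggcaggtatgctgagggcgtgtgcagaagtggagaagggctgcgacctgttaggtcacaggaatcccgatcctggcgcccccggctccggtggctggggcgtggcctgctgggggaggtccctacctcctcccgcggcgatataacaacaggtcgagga
They are chr15:101412153-101412402 (plus strand), chr15:102004343-102004592 (minus) and chr15:102027966-102028215 (plus). Of the 10 genes, 7 matched the RefSeq promoter table. Motifs were sought on both strands, by exact letters: CACCTG (an E-box bound by Zeb and Snail repressors), GGGCGG (the site bound by Sp1), TATAAA (the core promoter box bound by TBP), TGANTCA (the site of AP-1 factors) and AACCNGTT (a grainyhead site). CACCTG occurred in 4 of 7 promoters, against 17.2% of 32851 promoters. It lay 44 bases before the start in Krt7, 111 in Krt8, 214 in Krt18 and 128 in Krt5. Of these genes, Krt7 was called lower, and Krt8, Krt18 and Krt5 were not called. Krt14, also called lower, had no match to a searched motif in its window. Whether the E-box bears on any change was not tested. GGGCGG occurred 4 times in Krt7 and in no other of the 7, against 32.7% of promoters. TATAAA occurred in Krt20 and Vim, against 12.4%. TGANTCA (6.75% of promoters) and AACCNGTT (1.79%) had 0 matches. A match describes the letters in this window only.

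Other keratins were sparsely measured in these cells. Of 37 on the array 22 were tested, and 2 were called lower and 1 higher, with a median change of -0.08. Krt16, which is induced in wounded epidermis, was 2.20-fold lower. Its level was 0.81 and 0.82 on the vector arrays, and -0.29 and -0.35 on the others (adjusted p 0.0116 by limma). Krt10, a keratin of differentiating epidermis, was 1.62-fold lower (adjusted p 0.0383 by limma). Its other probe, which was dimmer (mean log2 intensity over both channels 6.8, against 9.6), changed by -0.07. The Krt10 call was missed in 10 of 20 alternative settings. Krt23, a type I keratin, was 9.07-fold higher (4.60 to 17.9), with levels of 1.01 and 0.15 on the vector arrays and 3.40 and 4.12 on the others (adjusted p 0.0161 by limma). Thus a keratin with a large rise stood beside the falls of Krt7 and Krt19. The calls of Krt16 and Krt23 were missed without either miR-23b/27b/24 array, and that of Krt16 also with every background as measured.

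Other intermediate filament genes (nestin, desmin, peripherin, neurofilaments, lamins and others) had 13 tested and 0 called by limma in either direction, with a median change of 0.12. At an unadjusted p under 0.05 limma gave 1 lower and 3 higher, and the adjusted test called up to 2 higher in other settings. The 3 include peripherin (Prph), which passed the filter through the miR-23b/27b/24 group alone, so its rise carries no test. Counts of this list also moved when some arrays were left out. Filament linkers, the plakins and plakophilins that tie filaments to junctions, had 3 of 11 called lower and 0 higher (6 and 1 at an unadjusted p under 0.05 by limma). Desmoplakin (Dsp), which anchors keratins at desmosomes, fell 19.5-fold (adjusted p 0.00645 by limma), from 3.42 and 2.92 on the vector arrays to -1.54 and -0.68. The other Dsp probes changed by -3.18, -0.78 and -0.41. The last 2 were dim, with mean log2 intensities over both channels of 6.11 and 6.37, against 9.41 for the brightest. Plakophilin 2 (Pkp2), a desmosomal plaque protein, fell 7.86-fold (adjusted p 0.0128 by limma). Envoplakin (Evpl) fell 1.92-fold (adjusted p 0.0257 by limma). The Evpl call was missed without either miR-23b/27b/24 array and with every background as measured. Without vector replicate 1, 2 linkers were called higher.

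Regulators of keratin genes and epithelial splicing had 4 of 15 called lower and 0 higher. These 4 count Esrp1, which passed the filter only through the group where it was high, so 3 calls can be read. At an unadjusted p under 0.05 limma gave 7 lower, again with Esrp1, and 3 higher. The median change of the list was -0.54. With every local background as measured 1 was called lower, and 2 without either miR-23b/27b/24 array. Without vector replicate 2 the counts were 7 lower and 2 higher, and without vector replicate 1 they were 5 lower and 1 higher. Grhl2, a grainyhead transcription factor of epithelia, fell 17.1-fold (adjusted p 0.00257 by limma), from 3.72 and 3.68 on the vector arrays to -0.64 and -0.15. Its other probe changed by -0.62 and was dim (mean log2 intensity 6.23, against 8.18). The Grhl2 call was missed with every local background as measured. The epithelial splicing factor Esrp1 was not well above background on the miR-23b/27b/24 arrays and was at least 5.65-fold lower there. Esrp1 passed the filter through the vector group alone, so no test value is given for it, although it is among the 4 counted. When probes had to be well above background on all 4 arrays, 3 regulators were called lower. Esrp2 fell 5.31-fold (adjusted p 0.00363 by limma). Klf5, a transcription factor of epithelial progenitors, was 3.14-fold lower on its brightest probe (adjusted p 0.00741 by limma). Its other probe, which was dim (mean log2 intensity 6.70, against 10.8), changed by 0.44. The Klf5 call was missed without either miR-23b/27b/24 array, and the Esrp2 call with every background as measured. Trp63, the basal transcription factor that drives Krt5 and Krt14, read -0.999 and -0.902 on the vector arrays, and -0.62 and -0.53 on the others. Its change of 0.38 was not called (adjusted p 0.131 by limma), and its other probe changed by -0.03.

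Regulators of the mesenchymal state had 2 of 9 called lower and 1 higher, with a median change of -0.04. Foxc2 fell 13.9-fold (adjusted p 0.00178 by limma). Twist1 fell 7.76-fold (adjusted p 0.0405 by limma), with miR-23b/27b/24 arrays at -0.93 and -2.56. Without miR-23b/27b/24 replicate 1 the Twist1 fold was 13.7, without replicate 2 it was 4.40, and the call was missed with median centring or every background as measured. Foxc1 rose 3.82-fold (adjusted p 0.00887 by limma), a call missed without either miR-23b/27b/24 array. The repressors Zeb1 and Snai2 changed by -0.06 and -0.14 and were not called (adjusted p 0.82 and 0.685 by limma). Zeb2 changed by 1.03, also not called (adjusted p 0.112 by limma). All 5 Zeb2 probes had positive changes, of 0.48 to 1.09, and 2 of them passed in limma fitted over all probes (adjusted p 0.0461 and 0.0407), where 5.41% of 30038 probes were called higher. With the mean of a gene's probes 2 of these regulators were called higher, as without vector replicate 1.

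**Figure D4:**
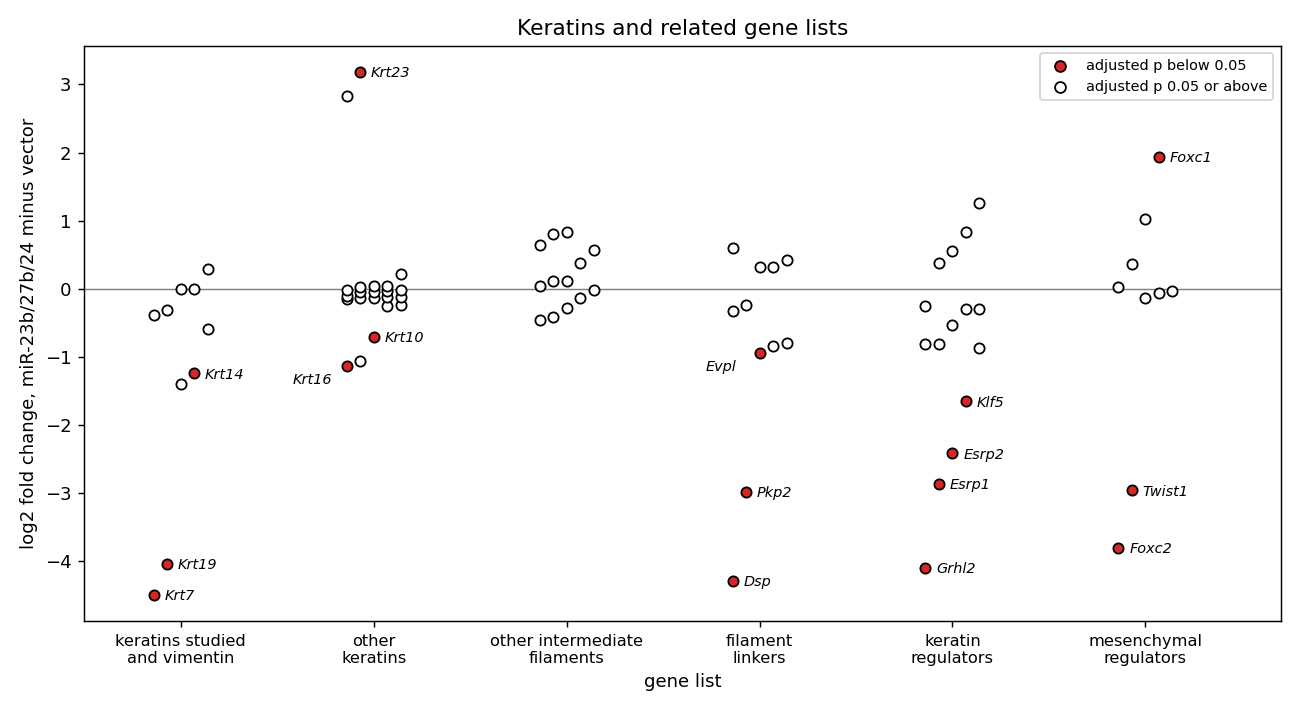
Change of every tested gene (miR-23b/27b/24 minus vector, log2 scale) in the keratin and vimentin set and 5 related lists; filled points passed the test and are named. Krt7 and Krt19 lie near Dsp and Grhl2 at the bottom, Krt23 lies at the top, and no other intermediate filament gene is filled. Esrp1 is filled although it passed the filter through the vector group alone.

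Markers of cell types gave the setting of these values. Luminal markers (9 genes, among them Krt8, Krt18 and Krt19) had a summed level of 13.5 and 12.1 on the vector arrays, and -4.34 and -1.15 on the miR-23b/27b/24 arrays, and 4 of 8 tested were called lower. Apart from Krt19 these were Cldn7 (12.7-fold), Epcam (12.2-fold) and Cdh1 (7.74-fold), all proteins of epithelial junctions or surfaces. The fall was not shared by the whole list. Muc1 and Prlr changed by -0.03 and -0.06, Krt8 by 0.30, and Krt18 fell without a call. Elf5, part of the sum, was not well above background on any array. The Cdh1 fold was 4.78 without miR-23b/27b/24 replicate 1 and 12.5 without replicate 2. In Cy5 signals after loess and Aquantile it was 22.9, so its size depended on the reference. The Cdh1 call was missed in 4 of 20 alternative settings: every background as measured, both forms of the Feature Extraction values, and the authors' value table. Basal or myoepithelial markers (8 genes) summed to -2.29 and -2.09 on the vector arrays, and -2.48 and -2.57 on the others, with 1 of 7 called lower (Krt14) and 1 higher (Acta2). Acta2, smooth muscle actin, was 1.93-fold higher on its brightest probe, and its other probes changed by -0.25 to -0.02. The Acta2 call was missed without either miR-23b/27b/24 array, with median centring and with the mean of a gene's probes. Fibroblast markers summed to -24.4 to -21.7 over the arrays, with 0 of 7 called in either direction by limma, and 0 lower and 2 higher at an unadjusted p under 0.05. In these bulk samples, fewer cells of a type and less RNA per cell cannot be told apart.

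Genes whose levels over the 4 arrays lay nearest to a member, by Euclidean distance among 14415 genes, describe its profile and carry no test. For Krt7 the nearest were Dsp (distance 1.00), Mmp13 (1.08) and Tspan12 (1.17). For Krt14 they were Ephx2 (0.098), Car12 (0.11) and Shroom2 (0.11). The nearest to Krt8 were Rap1gap2 (0.19), L3mbtl3 (0.20) and Snn (0.21), and each of them was also low on vector replicate 2. The nearest to Krt18 were Cystm1 (0.42), Ano9 (0.43) and Itga2 (0.48). For Vim they were S100a13 (0.23), Dlgap5 (0.31) and Dubr (0.39), which shared its low value on vector replicate 2.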

How the data were processed

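RNA of 4TO7 cells (Cy5) and reference RNA (Cy3) was hybridised to 4 Agilent arrays, with no dye swap. Scanner output came, per the file headers, from Agilent Feature Extraction 9.5.3.1, with mean signal and local background as intensity, processed intensity, and the log10 ratio of Cy5 over Cy3. The authors' deposited value table holds log2 ratios, centred per probe: 87.3% to 87.8% of values lay within 0.001 of the centred Feature Extraction ratio. The column medians were 0.0133, -0.0172, 0.0221 and -0.0149, and its software is not given in the sources here.

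Intensities were background-corrected in R 4.3.3 with limma 3.58.1 by normexp (offset 50). Outlier local backgrounds (1782 to 1976 spots an array in Cy5) took the median background of their array beforehand. Loess followed within arrays, with weight 0 for controls. A probe was kept if Cy5 was well above background throughout either group (30038 probes), and each gene was represented by its brightest probe. The comparison used lmFit with eBayes, on 2 residual and 2.83 prior degrees of freedom. Simulated log2 ratios with known changes served to check the fit. Names, microRNAs and promoters came from RefSeq tables of GRCm38.p6, and probe coordinates are mm7 per the file headers. A fold bound rests on mean Cy5 log2 signals (loess, then Aquantile), with the dim group held at no less than its lowest detectable signal; the smaller of it and the ratio's fold is given.

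The members and lists, and the replacement of backgrounds, were chosen with earlier results of these data known. Named genes were every member; up to 3 called genes with the largest change from each list; Trp63, Zeb1, Zeb2, Grhl2 and Snai2; the 3 nearest genes of 5 members; and up to 3 called markers per cell type. Klf5 was named after its values were seen. Alternatives covered background, offset, scaling, filter, probe rule, moderation, the replicate number as a block and each array left out in turn.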

Additional observations from a re-analysis of the deposited data

How the results depend on the processing

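Over 20 alternative settings Krt7 was called lower in 20 (changes of -6.87 to -4.30), Krt19 in 19 (-4.46 to -3.60) and Krt14 in 18 (-1.49 to -0.98). Krt18 was negative in 20 and called in 2. Krt15, Krt17 and Krt20 were negative in 20, with Krt15 called in 1. Leaving out each array in turn gave 1 to 5 members called lower and 0 to 2 called higher: 5 without vector replicate 2 (Krt15 and Krt18 added), 1 without miR-23b/27b/24 replicate 1 (Krt7), and 2 higher without vector replicate 1 (Krt8 and Vim). The spread of a group left with 1 array is taken from the other group. Changes of sign occurred in 3 genes that were not called. Krt5 ran from -0.084 to 0.067 when arrays were left out in turn, Krt8 from -0.16 to 0.75 and Vim from -0.74 to 0.75. Krt5 was 0.066 when outlier backgrounds were kept and 0.044 after median centring. Vim was -0.24 with median centring, -0.0032 with a normexp offset of 16 and -0.14 without miR-23b/27b/24 replicate 1. Genes called numbered 1929, but 639 with every background as measured, 1263 with median centring, 4584 and 2724 without vector replicate 1 and 2, and 214 and 236 without miR-23b/27b/24 replicate 1 and 2. The replicate block gave 1740 genes and the same member counts, 3 lower and 0 higher. Same-numbered arrays correlated at 0.0465 in their deviations over genes, so little was shared by replicate number. The labels do not say whether replicates were paired by design, and this value cannot show it. Keeping probes with an outlier spot was added after seeing the data. For the related lists, the cause of changed counts was not tested. Dim probes (Krt20, Krt5, Krt15, Krt17) limit what small changes could be seen.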

Other observations

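Leukocyte markers had 1 of 5 tested genes called lower and 0 higher. This was Cd68, a lysosomal protein best known from macrophages, which fell 3.21-fold with the cluster (adjusted p 0.00679 by limma). It read -0.25 and -0.37 on the vector arrays, and -1.90 and -2.08 on the others, and the call was missed without either miR-23b/27b/24 array. Endothelial and adipocyte markers had 3 tested each and 0 called by limma in either direction, also at an unadjusted p under 0.05. Krt76, a keratin of oral epithelium named here after its values were seen, read 0.05 and -0.36 on the vector arrays, and 3.70 and 1.66 on the miR-23b/27b/24 arrays. Its change of 2.83 was not called (adjusted p 0.0706 by limma), and it was called in 7 of 20 alternative settings. Krt13, named for the same reason, changed by -1.06 and was not called (adjusted p 0.0711 by limma), while its other probe changed by 0.02.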
